A study of Sus scrofa with 18 samples.

Results

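The change in gene expression over the cleavages after the 2-cell stage was measured in porcine parthenogenetic embryos whose oocytes had matured in DMEM, by comparing 3 pools of 8-cell embryos with 3 pools of 2-cell embryos across all genes. These 6 libraries belong to a series of 18 total RNA libraries of Sus scrofa, in which each maturation medium gave 3 pools at each of 3 cleavage stages. All oocytes came from ovaries of premature gilts collected at slaughter and lost their cumulus cells before activation with ionomycin and 6-DMAP, so that every embryo carried maternal chromosomes only. The DMEM group, the control, matured in Dulbecco's modified Eagle's medium with gonadotrophins, epidermal growth factor, insulin-like growth factor and fibroblast growth factor. The medium of the FLI group had another base, held the growth factors at other amounts and also contained leukemia inhibitory factor. After activation, embryos of both media developed in the same embryo culture medium. Whether the 3 pools of a stage were collected on different days is unknown. The p-values of single genes weigh a difference against the spread between pools, estimated over all 18 libraries, and reach no further than these pools. Fewer cells of a kind and less RNA per cell cannot be told apart in a pool.

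A mammalian oocyte stops transcription before it is ovulated and carries a store of maternal mRNA and protein through meiosis and the first cleavages. The store is then removed, largely through shortening of poly(A) tails, while the embryo's own genome is switched on, which in pigs is known to take place mainly around the 4-cell stage. A comparison of 8-cell with 2-cell embryos therefore spans the period in which both processes are known to occur. The values are relative, since no external RNA standard was added, so a transcript that kept its number while others were lost gains in share.

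The 2-cell libraries held 4563973 to 6781185 counts and the 8-cell libraries 1737985, 4599171 and 2856304. Of the reads mapped, 71.9 ± 1.89% (SD, n = 3) lay in genes at the 2-cell stage and 49.9 ± 6.12% at the 8-cell stage, with no overlap (exact permutation test, two-sided p = 0.1, the smallest that 3 against 3 libraries allow). The part of this difference in the results was not tested. Markers of oocyte and embryo, of which 8 of 11 were in the table, summed to 5001 to 5475 CPM (counts scaled to library size) in the 2-cell and 609 to 2148 CPM in the 8-cell libraries. Most of the 2-cell sum was BMP15, with means of 3912 CPM at the 2-cell and 862 CPM at the 8-cell stage. NPM2, DPPA3 and POU5F1 were not found. Cumulus and granulosa markers, 10 of 12, summed to 85.9 to 95.6 and 125 to 153 CPM, most of it VCAN, while HAS2 and LHCGR were at 0 in every 2-cell library and TNFAIP6 in every 8-cell library. Markers of blood and other somatic cells, 11 of 12, summed to 16.3 to 20.3 and 21.3 to 23.2 CPM.

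One library stood apart. 8-cell replicate 1, the shallowest, correlated with the 2-cell libraries at r = 0.742 to 0.746 on log2 levels across genes, against 0.660 to 0.668 for 8-cell replicate 2 and 0.612 to 0.619 for replicate 3, while the 2-cell libraries correlated among themselves at 0.978 to 0.982. It held the highest 8-cell level for 71.1% of the genes that fell, with a median of 1.59 times the mean of the other two. For 64.3% of the genes that rose it held the lowest 8-cell level, with a median over the rises of 0.78 times that mean. The number of higher and lower genes was 4737 and 3830 with this library and 4845 and 3957 without it, and in none of the 38 gene lists did the number of members called in a direction move by more than 3. It is shown as an open diamond in the plot of single genes by library.

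Of 13187 genes tested, 8567 (65.0%) passed an adjusted p of 0.05 in edgeR's quasi-likelihood test with Benjamini-Hochberg adjustment. There were 4737 genes (35.9%) higher and 3830 genes (29.0%) lower in 8-cell than in 2-cell embryos, and the median of all genes was 0.19 on the log2 scale. Counts of list members given below are to be read beside these shares. The rises were larger than the falls. The median log2 fold change was 2.72 among the higher and -1.65 among the lower genes, and 1298 genes rose by more than 16-fold where 66 fell by as much. In 8223 of the called genes the 3 and 3 libraries did not overlap, beside 37.5% of all tested genes that were higher without overlap and 34.4% that were lower without overlap.

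**Figure D1:**
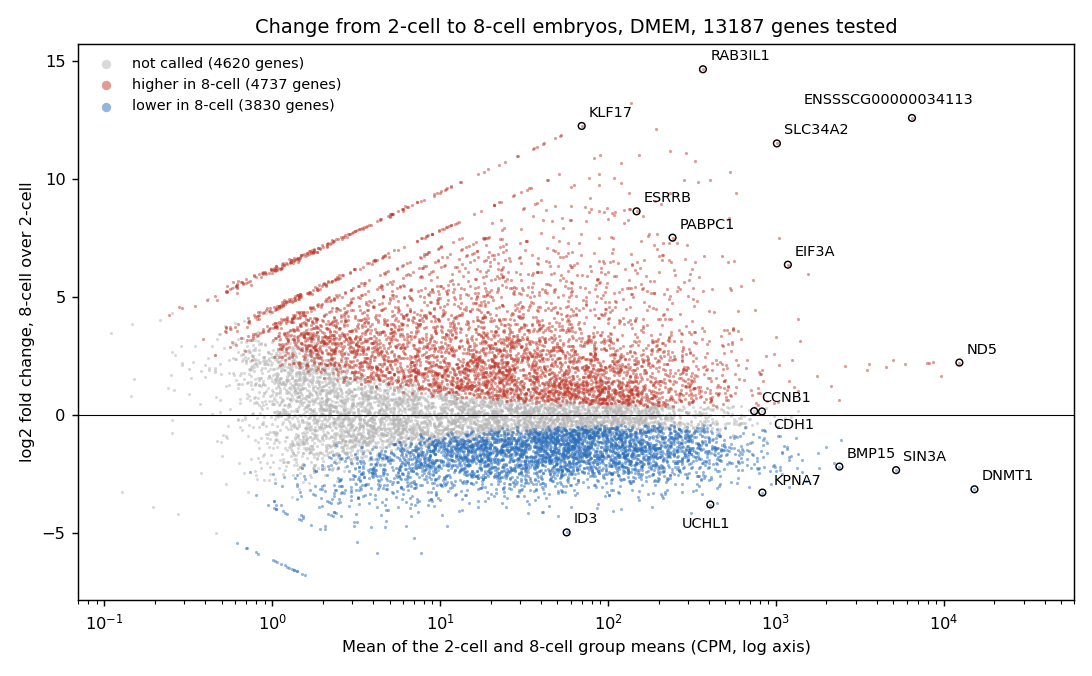
Each point is 1 of the 13187 genes tested, placed by its mean level in 2-cell and 8-cell DMEM embryos (CPM, log axis) and its log2 fold change, with 4737 genes called higher in red, 3830 called lower in blue and 4620 not called in grey. Rises reach further from 0 than falls, and the sloping lines at the upper left are genes with 0 or few counts at the 2-cell stage, whose fitted fold change depends on the prior count.

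In terms of the RNA pool, the genes called higher took 15.5 ± 0.652% of the counts at the 2-cell stage and 60.7 ± 7.02% at the 8-cell stage, and the genes called lower went from 63.7 ± 0.563% to 20.5 ± 6.46%. These shares restate the calls. The 4-cell DMEM libraries entered the fit but not the contrast between the 2 stages. They gave 59.2 ± 2.91% for the higher and 21.2 ± 2.55% for the lower genes, close to the 8-cell values. At least 1 count in 2 of 3 libraries was found for 14797 genes at the 2-cell and 15870 genes at the 8-cell stage, with 1098 genes detected at the 2-cell stage alone and 2171 at the 8-cell stage alone. The share of mapped reads in genes was lower in every 8-cell library, and its part in these numbers was not tested.

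**Figure D2:**
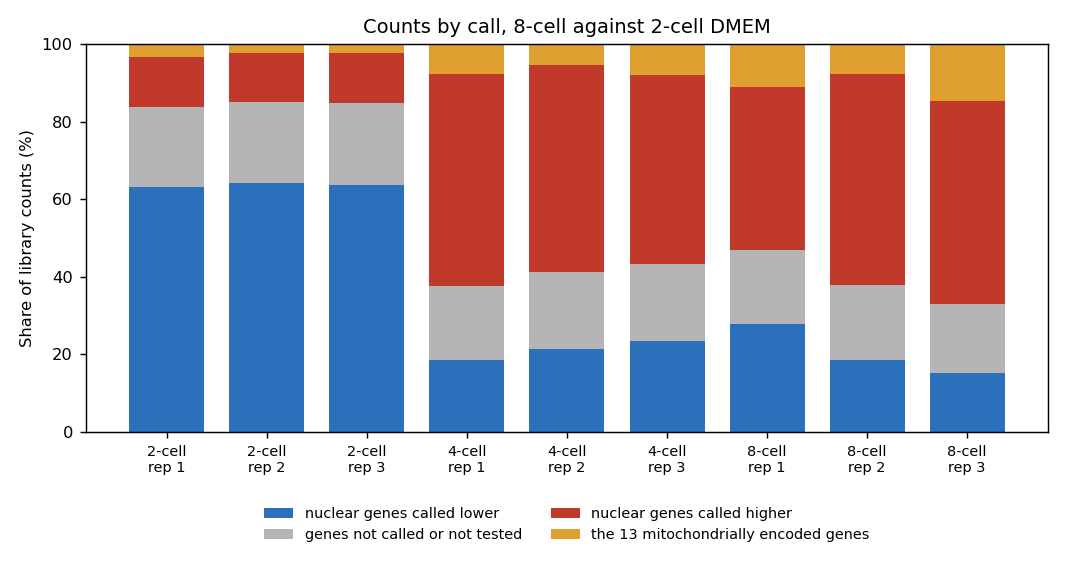
Bars give the share of counts (%) in each of the 9 DMEM libraries that falls in nuclear genes called lower (blue), genes not called or not tested (grey), nuclear genes called higher (red) and the 13 mitochondrially encoded genes (yellow). The blue share is 63.1 to 64.2% in 2-cell, 18.5 to 23.5% in 4-cell and 15.3 to 27.7% in 8-cell libraries, with 8-cell replicate 1 the highest of the last.

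Rises were ranked among called genes with a symbol, without overlap between the stages and above a floor on mean level. The largest were of genes with few or no counts at the 2-cell stage. RAB3IL1 (chromosome 2, 9577330 to 9599973, Sscrofa11.1), which encodes an exchange factor of RAB GTPases, had no count in any 2-cell library and stood at 683, 821 and 701 CPM in the 8-cell libraries. Against the level of 3 counts over the 2-cell group, 0.178 CPM, it was at least 4126-fold higher. KLF17 (chromosome 6, 167176834 to 167188418), a Krüppel-like transcription factor of early embryos in humans, rose from 0 in all 3 libraries to 140, 130 and 148 CPM, at least 782-fold. SLC34A2, a sodium-phosphate cotransporter, had 1.51, 0.576 and 0.143 CPM in the 2-cell and 1660, 2179 and 2237 CPM in the 8-cell libraries (log2 fold change 11.49 ± 0.66 (SE), adjusted p = 9.17e-11). For RAB3IL1 and KLF17 the 8-cell libraries lay close together, and for SLC34A2 replicate 1 was the lowest of them.

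Others of the 15 largest rises differed between the 8-cell libraries. ARG1, the arginase of the urea cycle, had 0 counts at the 2-cell stage and 17.9, 121 and 177 CPM at the 8-cell stage, beside a mean of 18.2 CPM at the 4-cell stage. SULT1E1, an oestrogen sulfotransferase, stood at 233, 493 and 438 CPM, and XPNPEP2, an aminopeptidase, at 39.9, 110 and 139 CPM. In all 3, replicate 1 was the lowest of the 8-cell libraries. LGALS1, which encodes galectin-1, rose from 0 to 106, 99.5 and 104 CPM, at least 579-fold, while LGALS3, galectin-3, fell from 70.3, 77.2 and 83.0 CPM to 7.53, 2.63 and 4.29 CPM (log2 fold change -4.11 ± 0.45). The stress-induced transcription factor ATF3, the biliverdin reductase BLVRB, the RNA polymerase III subunit POLR3F and the mRNA-binding protein IGF2BP1 were also among the 15, with 8-cell means of 82.3, 72.5, 71.9 and 470 CPM.

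One unnamed gene, ENSSSCG00000034113 (chromosome 9, 25500051 to 25503695), reached 11273, 14008 and 13496 CPM at the 8-cell stage from 2.38, 2.11 and 1.85 CPM at the 2-cell stage (log2 fold change 12.57 ± 0.48, adjusted p = 1.61e-12). At 20525 TPM (a level that accounts for gene length) it was the only gene beside mitochondrially encoded and ribosomal protein genes among the 15 of highest level in 8-cell embryos. The files and the reference used here give it no name.

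**Figure D3:**
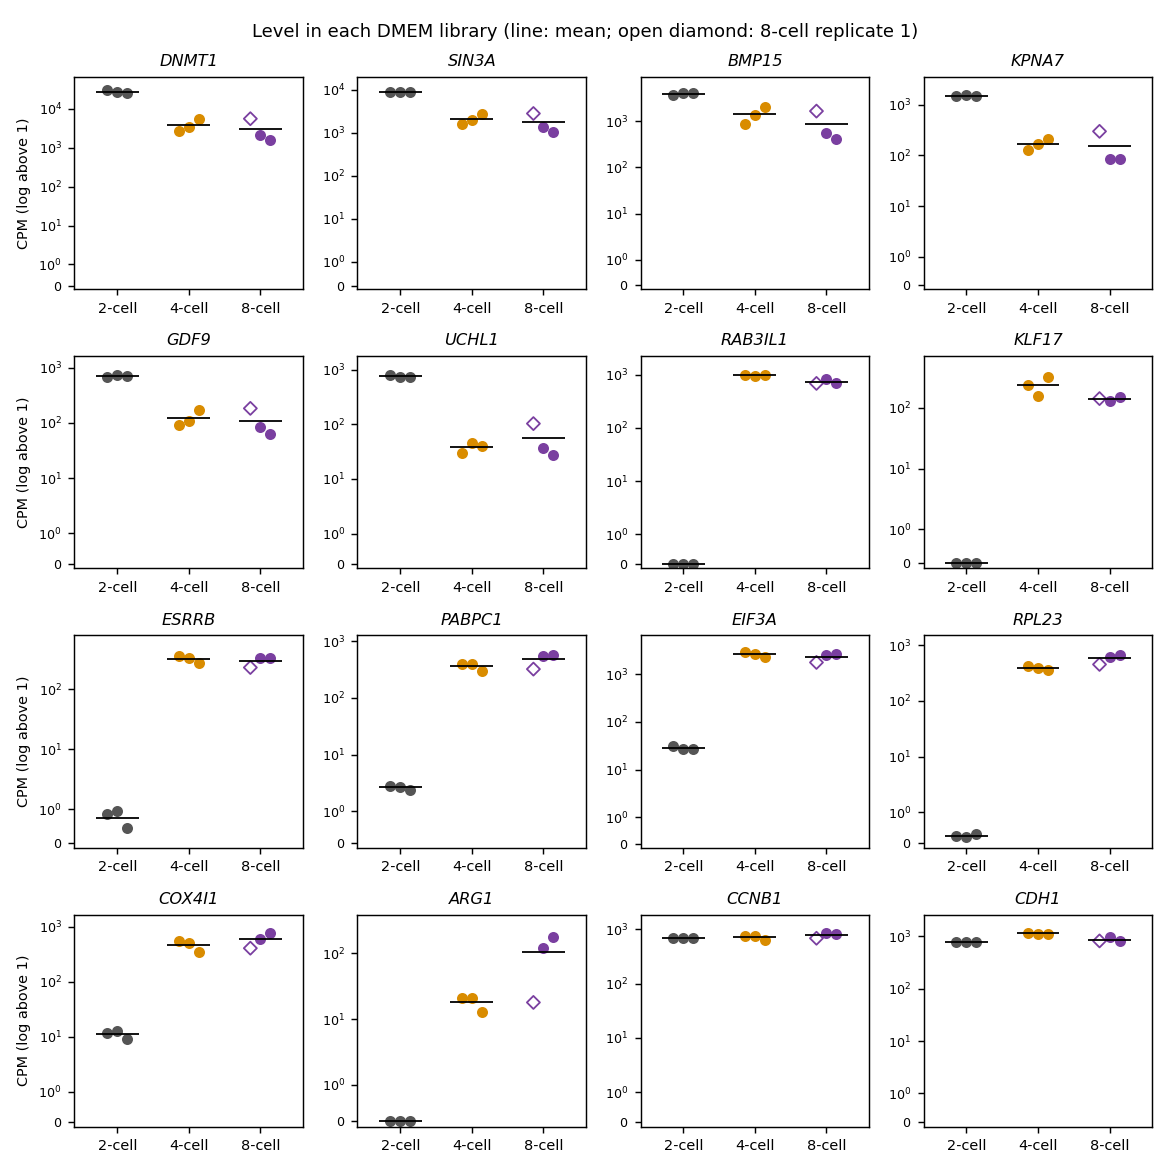
Levels of 16 genes in each of the 9 DMEM libraries (CPM, linear below 1 and logarithmic above, lines at the group means). DNMT1, SIN3A, BMP15, KPNA7, GDF9 and UCHL1 are lower in all 8-cell than in all 2-cell libraries, with 8-cell replicate 1 (open diamond) above the other two. The genes from RAB3IL1 to ARG1 are higher, most of them at 4-cell levels like those at the 8-cell stage, and CCNB1 and CDH1 were not called.

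The falls began from some of the most abundant transcripts of the embryo. DNMT1 (chromosome 2, 68981566 to 69029844), the maintenance DNA methyltransferase, was at 29749, 26414 and 25915 CPM in the 2-cell and 5583, 2115 and 1582 CPM in the 8-cell libraries (log2 fold change -3.15 ± 0.61, adjusted p = 0.000261). The groups were far apart, and replicate 1 held the highest 8-cell level. SIN3A, the scaffold of a histone deacetylase complex, fell from 8815, 8537 and 8677 CPM to 2774, 1352 and 1038 CPM. PCNA, the sliding clamp of DNA replication, fell from a mean of 2666 to 884 CPM. Among the genes deposited, DNMT1, SIN3A, PCNA, H1-8 and BMP15 were the 5 encoded in the nucleus of the 15 with highest TPM in 2-cell embryos. All 5 fell.

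Falls were ranked in the same way as rises, among called genes with a symbol and above a floor on mean level. The steepest of these were of ID3, an inhibitor of DNA binding that responds to BMP signals, and of TRIM50, a ubiquitin ligase. Some genes outside this ranking had lower values. CLDN10, at a mean of 9.13 CPM in 2-cell embryos, had a log2 fold change of -4.76, beside -4.70 for TRIM50. The lowest value among oocyte transcription factors and meiosis genes was -6.46. ID3 went from 98.9, 125 and 104 CPM to 8.68, 1.75 and 1.79 CPM (log2 fold change -4.97 ± 0.53, adjusted p = 2.5e-07). MAEL, which acts in transposon silencing in germ cells, fell from 95.6, 96.6 and 96.2 CPM to 8.68, 4.82 and 2.14 CPM. The lysosomal enzyme MANBA fell from a mean of 593 to 35.0 CPM and the regulator of G-protein signalling RGS2 from 340.5 to 24.0 CPM. UCHL1, a deubiquitinating enzyme abundant in oocytes, had 799, 742 and 732 CPM at the 2-cell and 103, 36.8 and 27.5 CPM at the 8-cell stage, 13.8 times lower by the fit.

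Genes of the oocyte and its zona pellucida were mostly lower. Of 10 tested members of the list of zona proteins and oocyte secreted factors, 7 fell and 1 rose, and the median log2 fold change was -1.82. The growth factors GDF9 and BMP15, by which the oocyte signals to its cumulus cells, fell from 712 ± 25.3 to 111 ± 64.3 CPM and from 3912 ± 166 to 862 ± 679 CPM. ASTL, the egg cortical granule protease ovastacin, fell from 148, 162 and 134 CPM to 59.1, 16.7 and 15 CPM. The zona genes moved less. ZP2 (log2 fold change -1.36) and ZP3 (-1.22) fell, both calls being lost without 8-cell replicate 2 or 3 (adjusted p 0.0525 to 0.0679) and that of ZP3 also without 2-cell replicate 2 (0.0737), and ZP4 went from 153 to 78.1 CPM without passing the test (adjusted p = 0.115), although it did in fits of only the 6 libraries compared (0.00976) or the 9 DMEM libraries (0.00604) and without 8-cell FLI replicate 3 (0.028). The ZP3 libraries of the 2 stages overlapped. The member that rose, JUP, encodes the junction protein plakoglobin.

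Maternal effect genes had the lowest median of the 38 lists, -2.44, with 9 of 13 tested members lower and 3 higher. ZAR1L fell from 560, 677 and 495 CPM to 107, 47.3 and 32.5 CPM. NLRP5 and OOEP, of the subcortical maternal complex, and the cytoplasmic lattice protein PADI6 fell with log2 fold changes of -2.44, -3.40 and -2.91. NLRP9 fell from a mean of 1841 to 328 CPM. The 3 members that rose were ZFP57 and TRIM28, which together protect methylation at imprinted genes in the mouse, and the chromatin remodeller SMARCA4. ZFP57 had 2.38, 1.92 and 1.57 CPM in 2-cell and 48.6, 123 and 131 CPM in 8-cell libraries.

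Among transcription factors and meiosis genes of the oocyte, 12 of 20 tested members fell and 4 rose (median -1.97). NOBOX, a transcription factor needed for follicle growth, fell from 147, 150 and 154 CPM to 36.5, 8.99 and 11.8 CPM. MOS, the kinase that holds the egg at metaphase, fell from 316, 366 and 362 CPM to 108, 29.2 and 17.5 CPM. The members higher at the 8-cell stage included TAF4B, a TFIID subunit of germ cells, the synaptonemal complex protein SYCP3 and the germ cell helicase DDX4. SYCP3 rose from 60.8, 52.4 and 50.7 CPM to 222, 313 and 277 CPM, above all 2-cell libraries.

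Of 47 tested genes that handle stored mRNA 15 (31.9%) rose and 18 (38.3%) fell, shares near the 35.9% and 29.0% of all genes tested. BTG4, the adapter that brings deadenylases to maternal mRNA, fell from 620, 696 and 646 CPM to 291, 69.0 and 53.2 CPM. PATL2 and CPEB1, which keep oocyte mRNA silent, fell with log2 fold changes of -2.99 and -2.59. In the other direction, the general poly(A)-binding protein PABPC1 (chromosome 4, 36209164 to 36228073) rose from 2.81, 2.69 and 2.43 CPM to 322, 552 and 572 CPM (log2 fold change 7.50 ± 0.36, adjusted p = 1.51e-11). CNOT9, a subunit of the deadenylase complex, rose with a log2 fold change of 2.94. BTG4 was chosen after its values were seen.

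Several oocyte forms of a protein fell where a general form rose, in a set of 10 pairs chosen after the values were seen. PABPC1L fell from 243 ± 19.4 to 45.7 ± 36.0 CPM beside the rise of PABPC1. EIF4E1B, the oocyte cap-binding protein, fell from 179 ± 15.2 to 32.8 ± 28.9 CPM and EIF4E rose from 57.2 ± 9.37 to 123 ± 22.0 CPM. YBX2 fell from 643 to 159 CPM and YBX1, its counterpart in other cells, rose from 839 to 2660 CPM. In all, the oocyte form fell in 9 of 10 pairs and the general form rose in 7. The exceptions were TAF4B, which rose while TAF4 fell, and PATL1 and CPEB4, which were not called (log2 fold changes 0.24 and -0.55). PATL1 was called higher in DESeq2 (adjusted p = 0.0364) and with at least 10 counts in a group (0.0227). CPEB4 was called lower with the 6 or 9 DMEM libraries (0.0149 and 0.0155), with library size only (0.0407) and without 8-cell FLI replicate 3 (0.024). For the importin pair, KPNA7 fell and KPNA4 rose, but KPNA2, another general form, also fell, from 1114 to 340 CPM. The rise of PABPN1 was not called without 8-cell replicate 2 (adjusted p = 0.0744). The fall of WEE2 was not called without 8-cell replicate 3 (adjusted p = 0.053), nor was that of TAF4 without 2-cell replicate 1 or 8-cell replicate 2 or 3 (0.0597 to 0.0926).

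**Figure D4:**
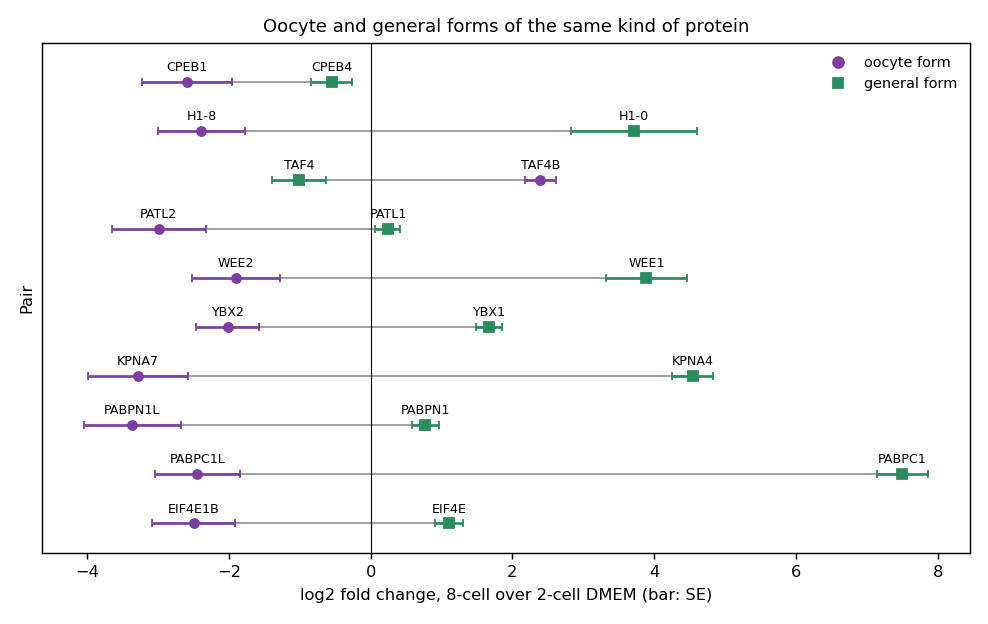
Log2 fold changes (bars, SE) from 2-cell to 8-cell DMEM embryos for 10 pairs of an oocyte form (circles) and a general form (squares). In 7 pairs the circle lies below 0 and the square above it, TAF4B and TAF4 lie the other way round, and PATL1 and CPEB4 were not called.

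Genes known from embryonic genome activation were mostly higher, with 23 of 32 tested members up, 3 down and a median log2 fold change of 2.79. Of 41 genes listed 34 were found by symbol, and ZSCAN4, LEUTX and KDM4E were among those not found. NR5A2, an orphan nuclear receptor known as an activator of the early genome in the mouse, rose from 0.865, 0.960 and 0.143 CPM to 181, 245 and 174 CPM (log2 fold change 8.30 ± 0.38). The homeobox gene DPRX rose to 122, 128 and 103 CPM from at most 0.433 CPM. MYCN and the histone H3 lysine 4 demethylase KDM5B rose with log2 fold changes of 8.64 and 6.76. KLF4 was already present at the 2-cell stage, at 39.8 ± 4.95 CPM, and rose to 542 ± 62.1 CPM. DNMT3B, a de novo DNA methyltransferase on this list, fell from 339, 363 and 350 CPM to 102, 36.2 and 23.9 CPM. KDM5A and E2F4 were the other members lower (log2 fold changes -0.87 and -0.56), E2F4 not without 2-cell replicate 2 (adjusted p = 0.0989) or with at least 10 counts in a group (0.0798).

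Of 24 tested pluripotency and lineage factors 9 (37.5%) rose and 9 fell, near the shares of all genes tested, 35.9% and 29.0%. ESRRB (chromosome 7, 99514168 to 99699011), a nuclear receptor of naive pluripotency in the mouse, rose from 0.865, 0.960 and 0.428 CPM to 229, 329 and 327 CPM. GATA6, a factor of the primitive endoderm, rose from at most 0.576 CPM to 171, 274 and 275 CPM. NANOG, SOX2, PRDM14, TEAD4 and TBX3 also rose, NANOG from at most 0.216 CPM to 23.1 ± 6.19 CPM. The members that fell included DPPA5, LIN28A, GATA4, STAT3 and the Hippo effector YAP1. YAP1 went from 311, 319 and 317 CPM to 133, 86.6 and 76.4 CPM. Of the members tested, the later lineage markers GATA2, GATA3, EOMES and HNF4A were not called and stood at 1.97 CPM or less in the 8-cell libraries, though EOMES was called lower with only the 6 libraries compared (adjusted p = 0.0324).

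The most uniform rise was that of the ribosome. Of 30 tested small subunit protein genes 29 rose and none fell, and of 35 large subunit genes all rose, with median log2 fold changes of 6.43 and 5.32. RPL23 rose from 0.216, 0.192 and 0.285 CPM to 454, 609 and 684 CPM. RPS19 rose from 1.51, 2.69 and 1.28 CPM to 287, 375 and 376 CPM and RPL35 from 1.95, 1.92 and 4.57 CPM to 340, 407 and 415 CPM. The summed level of the 30 small subunit genes was 887 ± 44.9 CPM at the 2-cell, 11250 ± 1051 CPM at the 4-cell and 12992 ± 2361 CPM at the 8-cell stage. The gene not called, RPS24, accounts for most of the 2-cell sum, at 538, 513 and 565 CPM against 475, 647 and 549 CPM at the 8-cell stage. The sources do not say how reads that match several places were counted, and ribosomal protein genes have many near-identical copies, so values of single members are uncertain.

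Genes that make and use ribosomes followed. Of the list of RNA polymerase I and the nucleolus, 38 of 45 tested members rose and 1 fell (median 2.02), among them fibrillarin (FBL), which methylates ribosomal RNA, from 1.95, 1.73 and 3.28 CPM to 170, 188 and 180 CPM. DKC1, the pseudouridine synthase dyskerin, rose from 53.3 to 569 CPM. The exception was TAF1A, a subunit of the polymerase I selectivity factor, which fell from 611, 528 and 626 CPM to 202, 143 and 116 CPM. Of 37 translation factors 34 rose, and the 3 that fell were EIF4E1B, EIF4G3 and EIF5B. EIF3A (chromosome 14, 128967653 to 129007173), the largest subunit of the initiation factor that binds the small ribosomal subunit, rose from 30.5, 27.5 and 27.0 CPM to 1768, 2529 and 2685 CPM. The scaffold EIF4G1 rose from 66.0 to 1441 CPM while its relative EIF4G3 fell from 126 to 40.8 CPM. The cytosolic tRNA synthetases gave 17 of 22 higher and 1, LARS1, lower.

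Within transcription and splicing the rise was less even. Of 46 tested genes for RNA polymerase II and general factors 28 rose and 5 fell. POLR2B, a core catalytic subunit, rose from 2.6, 2.88 and 2.57 CPM to 315, 475 and 486 CPM, whereas POLR2A, the largest subunit, was at 419, 393 and 305 CPM before and 341, 401 and 439 CPM after (adjusted p = 0.704). GTF2E1, of the initiation factor TFIIE, fell from 1573 to 350 CPM. Splicing factors gave 44 of 55 higher and 4 lower. SRSF6, a regulator of exon choice, rose from 3.25, 4.22 and 2.28 CPM to 288, 287 and 245 CPM. POLR2A was named after its values were seen.

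**Figure D5:**
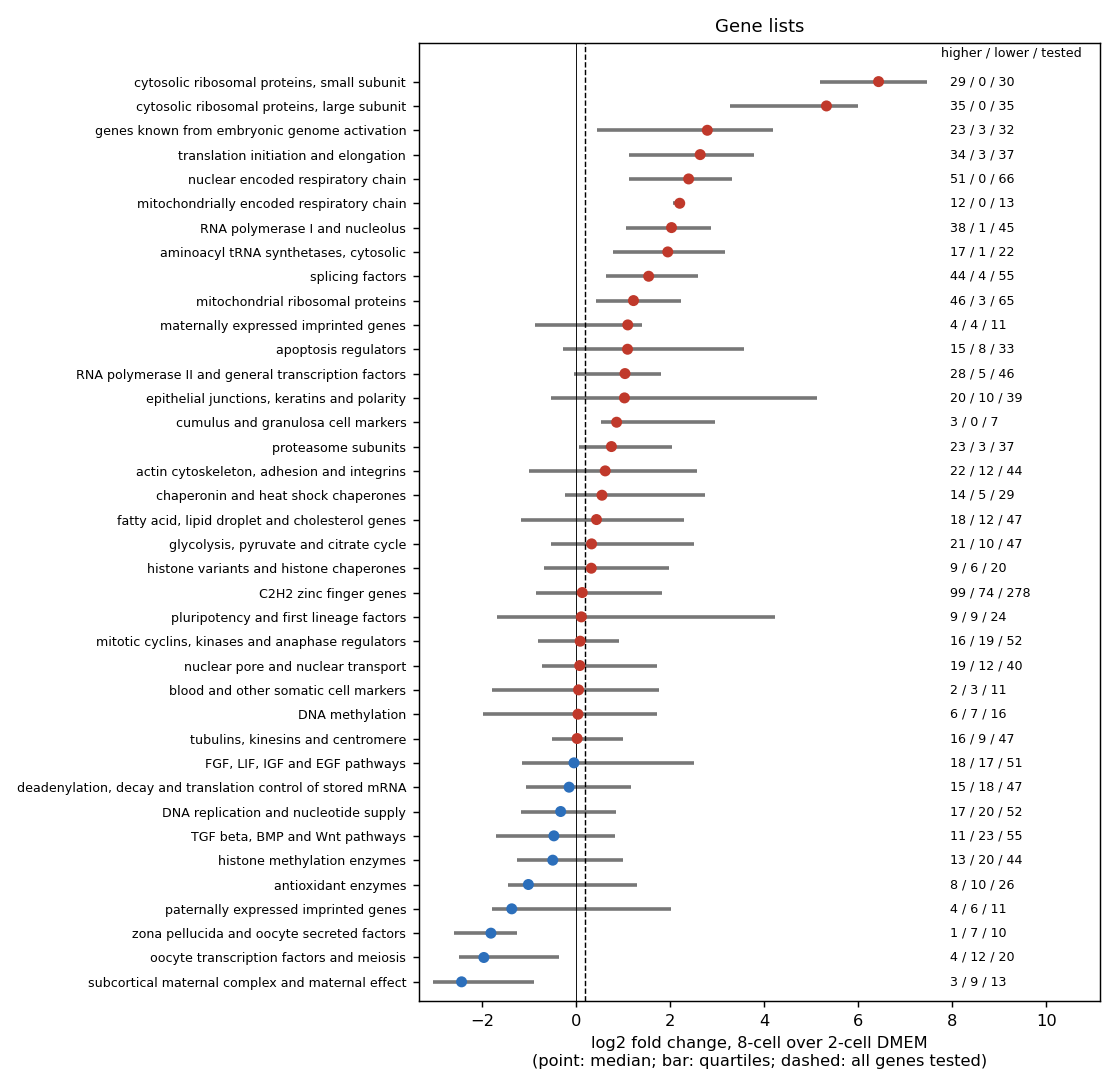
Medians (points) and quartiles (bars) of the log2 fold change from 2-cell to 8-cell DMEM embryos for 38 gene lists, with the numbers of members higher, lower and tested at the right and the median of all genes tested, 0.19, as a dashed line. Ribosomal protein lists have the highest medians (6.43 and 5.32) and the maternal effect list the lowest (-2.44).

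Mitochondrial transcripts took a growing share. The 13 mitochondrially encoded genes held 2.70 ± 0.651% of counts at the 2-cell, 7.0 ± 1.48% at the 4-cell and 11 ± 3.37% at the 8-cell stage (2-cell against 8-cell, no overlap, exact permutation test, two-sided p = 0.1). In TPM the shares were 9.33 ± 2.14% and 28.6 ± 6.78%. Of the 13 genes 12 rose, with log2 fold changes from 1.65 for COX1 to 2.48 for ND3, and ATP8 was not called (0.97, adjusted p = 0.115). COX3, a subunit of cytochrome oxidase, stood at 2115, 1457 and 1450 CPM and then at 7787, 6503 and 10646 CPM. Over all 13 genes the changes ranged from 0.97 to 2.48, more narrowly than in the nuclear encoded respiratory chain. There, 51 of 66 tested genes rose, none fell and single changes ranged from -0.30 to 6.99. NDUFV1, a core subunit of complex I, rose from at most 0.865 CPM to 31.8, 83.3 and 75.4 CPM and COX4I1 from 11.9, 12.9 and 9.13 CPM to 410, 607 and 760 CPM. Mitochondrial ribosomal proteins gave 46 of 65 higher and 3 lower, with MRPS14 the member that fell most, from 329.8 to 48.1 CPM.

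Proteasome subunits gave 23 of 37 higher and 3 lower (median 0.75), with PSMD7, of the regulatory cap, up from 24.1 to 290.4 CPM and PSMA7, of the core, down from 403 to 220 CPM. Of 29 tested chaperone genes 14 rose (48.3%) and 5 fell (17.2%), beside 35.9% and 29.0% of all genes tested. HSPA8, the constitutive heat shock protein, rose from 147, 142 and 166 CPM to 1713, 2922 and 3031 CPM. HSP90AB1 and the co-chaperone DNAJA1, both abundant at the 2-cell stage, were among the 5 that fell, with log2 fold changes of -1.24 and -0.98.

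Of 20 tested histone variants and chaperones 9 rose (45%) and 6 fell (30%), beside 35.9% and 29.0% of all genes tested. The replacement histones H2AZ1 and H3-3A rose, H2AZ1 from 4.76, 6.15 and 8.28 CPM to 234, 287 and 286 CPM. The oocyte linker histone H1-8 fell from 1587, 1851 and 1589 CPM to 606, 219 and 139 CPM, and SLBP and CHAF1A, which serve histone mRNA and histone deposition at replication, fell with log2 fold changes of -2.52 and -1.30. Histone methylation enzymes gave 13 of 44 higher (29.5%) and 20 lower (45.5%). The H3 lysine 36 methyltransferase SETD2 and the Polycomb subunit EED rose (4.01 and 7.28), and the H3 lysine 9 methyltransferases SETDB1 and EHMT2 fell (-2.19 and -1.69). Of 16 tested DNA methylation genes 6 rose (37.5%) and 7 fell (43.8%), the first near the 35.9% of all genes tested. DNMT1, DNMT3B, UHRF1, the cofactor of DNMT1, and ZNF445 were among those that fell, and the DNA glycosylase TDG rose from 0 in all 2-cell libraries to 50.4, 66.4 and 55.0 CPM, at least 321-fold.

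Of 52 mitotic genes 16 rose (30.8%) and 19 fell (36.5%), and of 52 replication genes 17 rose (32.7%) and 20 fell (38.5%), shares near those of all genes tested (35.9% and 29.0%). CCNB1, the main mitotic cyclin, was at 698, 703 and 701 CPM against 688, 851 and 812 CPM (log2 fold change 0.16 ± 0.16, adjusted p = 0.37). BUB1B, of the spindle checkpoint, fell from 814 to 169 CPM and the phosphatase CDC25C from 172 to 67.4 CPM. MDM2 and CCNE1 rose with log2 fold changes of 3.81 and 1.52. Of the replication genes, LIG1 and POLD1, which act on the lagging strand, rose (2.84 and 2.89) and GINS2, CDC6 and TYMS fell (-2.23, -2.02 and -2.13).

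Of 39 tested genes of epithelial junctions 20 rose (51.3%) and 10 fell (25.6%), beside 35.9% and 29.0% of all genes tested. The desmosome protein plakophilin 2 (PKP2) rose from at most 0.433 CPM to 70.1, 74.7 and 95.0 CPM. Plakoglobin (JUP) rose from 3.38 to 142 CPM. E-cadherin (CDH1), the adhesion protein of compaction, was already at 780, 785 and 784 CPM and stood at 822, 980 and 805 CPM, not called (adjusted p = 0.464). Beta-catenin (CTNNB1), the tight junction scaffold TJP1 and ezrin (EZR) fell with log2 fold changes of -1.27, -1.79 and -1.21. KRT18, chosen after its values were seen, rose from at most 0.576 CPM to 64.8, 71.7 and 107 CPM, beside 31.4, 61.1 and 8.74 CPM in the 4-cell libraries.

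In the cytoskeleton, 22 of 44 actin and adhesion genes rose (50%) and 12 fell (27.3%), beside 35.9% and 29.0% of all genes tested. The actin sequestering TMSB10 rose from 7.67 to 266 CPM and talin (TLN1) from 9.0 to 104 CPM, while the laminin receptor subunit ITGA6 fell from 324, 291 and 293 CPM to 61.4, 42.1 and 47.5 CPM. Tubulins and kinesins gave 16 of 47 higher (34.0%), near the 35.9% of all genes tested, and 9 lower (19.1%). TUBB rose from 51.1, 44.2 and 41.9 CPM to 395, 554 and 550 CPM, and PRC1, of the central spindle, fell from 694 to 252 CPM.

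In the FGF, LIF, IGF and EGF pathways, whose ligands are among the supplements of the maturation media, 18 of 51 tested members rose (35.3%) and 17 fell (33.3%), about the shares of all genes tested (35.9% and 29.0%). The receptor IGF1R fell from 131, 114 and 111 CPM to 37.1, 28.1 and 26.8 CPM and the ligand HBEGF from 142, 137 and 126 CPM to 54.4, 27.4 and 21.4 CPM. The adaptor GRB2 rose from 2.00 to 76.1 CPM. The kinases of the same step moved apart, MAP2K1 falling from 300.4 to 105 CPM and MAP2K2 rising from 5.39 to 57.7 CPM. In the TGF beta, BMP and Wnt pathways 11 of 55 rose (20%) and 23 fell (41.8%). The median was -0.48, or -0.37 with genes at 0 in a group set at their bound. The ligands BMP6 and WNT3 and the receptor FZD5 fell (-2.70, -1.98 and -2.89), and the inhibitor SMAD7 and the common mediator SMAD4 rose (6.26 and 1.99).

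Metabolic enzymes of 1 pathway could move in opposite directions. Glycolysis and citrate cycle genes gave 21 of 47 higher (44.7%) and 10 lower (21.3%), beside 35.9% and 29.0% of all genes tested. Phosphoglycerate mutase PGAM1 rose from 0, 0.576 and 0 CPM to 142, 198 and 192 CPM and transketolase (TKT) from 13 to 526 CPM, while phosphogluconate dehydrogenase (PGD), of the same pentose phosphate pathway as TKT, fell from 59.4 to 15.7 CPM. Aldolase C (ALDOC) fell from 35.5, 39.2 and 40.8 CPM to 7.53, 3.73 and 2.86 CPM. In the lipid list, 18 of 47 rose (38.3%) and 12 fell (25.5%), near the shares of all genes tested (35.9% and 29.0%). CPT1A, which commits fatty acids to oxidation in mitochondria, rose from 2.16, 0 and 0.428 CPM to 705, 934 and 798 CPM (log2 fold change 9.95 ± 0.63). The fatty acid carrier FABP5 rose from 3.01 to 197 CPM. Squalene synthase (FDFT1) and the acyl-CoA synthetase ACSL3 fell from 2419 to 452 CPM and from 1316 to 275 CPM.

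Antioxidant enzymes had a median of -1.02, beside 0.19 for all genes tested. Of 26 tested members 8 rose (30.8%) and 10 fell (38.5%), beside 35.9% and 29.0% of all genes tested. PRDX1 and PRDX2, cytosolic peroxidases, fell from 99.8 to 28.3 CPM and from 284 to 37.1 CPM. PRDX4, of the endoplasmic reticulum, rose from 0.865, 1.54 and 0.571 CPM to 109, 112 and 125 CPM, and PRDX5 and PRDX6 rose with log2 fold changes of 3.14 and 4.56. The superoxide dismutase SOD1 fell from 98.9, 94.1 and 103 CPM to 34.2, 21.3 and 18.6 CPM. Of 33 tested apoptosis regulators 15 rose (45.5%) and 8 fell (24.2%), beside 35.9% and 29.0% of all genes tested. BAD, BAK1 and the survival factor MCL1 rose (8.66, 5.49 and 4.45), and BCL2L1, which encodes BCL-XL, fell from 2134, 2221 and 2225 CPM to 805, 373 and 209 CPM. BAX, at 3.46, 2.50 and 6.71 CPM at the 2-cell stage, fell to 0, 0.219 and 0.714 CPM.

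Of 11 tested genes known in mammals to be expressed from the paternal copy, which parthenotes lack, 4 rose (36.4%) and 6 fell (54.5%). Over all genes tested the shares were 35.9% and 29.0%. The summed level of the list went from 417 ± 16.9 to 143 ± 54.6 CPM. The fallers included PLAGL1, MEST, SGCE and INPP5F. PLAGL1 went from 80.0, 103 and 94.6 CPM to 26.1, 8.55 and 4.29 CPM. The calls of the other members lower, PEG10 and DIRAS3, were lost on leaving out any of several libraries (adjusted p 0.0718 to 0.136 and 0.0843 to 0.192). PEG3, IMPACT, NDN and ZDBF2 rose, but none exceeded 29.6 CPM in an 8-cell library, and PEG3 went from 1.95, 2.30 and 1.71 CPM to 5.21, 12.1 and 9.28 CPM. The call of ZDBF2 was lost without 2-cell replicate 1 or 2 or 8-cell replicate 3 (0.0695 to 0.077). The median of this list was -1.38 with all libraries and 0.38 without 8-cell replicate 1.

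Genes known to be expressed from the maternal copy gave 4 of 11 tested members higher and 4 lower (36.4% each), near the shares of all genes tested. UBE3A, a ubiquitin ligase, rose from 13.6 ± 2.44 to 231 ± 39.3 CPM. IGF2R, the receptor that removes insulin-like growth factor 2, rose from 69.7, 69.9 and 62.6 CPM to 97.8, 183 and 216 CPM, beside a mean of 101 CPM at the 4-cell stage. GRB10, a growth factor receptor adaptor, rose from at most 0.216 CPM to 1.16, 6.36 and 6.43 CPM. The calls of TSSC4, which was higher, and of TFPI2, COPG2, KCNQ1 and PPP1R9A, which were lower, were each lost on leaving out at least 1 library (adjusted p 0.057 to 0.0938). Of the C2H2 zinc finger genes, 99 of 278 tested rose and 74 fell, beside 35.9% and 29.0% of all genes tested. ZNF622 rose from 0.865, 0.384 and 0 CPM to 206, 304 and 292 CPM.

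Some abundant genes without a call were chosen for a log2 fold change near 0. Among them, HNRNPU, USP7, DDX21 and HCFC1 had values from -0.16 to 0.15. The small size of these values follows from that choice, so it does not show that abundant genes without a call were unchanged. DDX21, an RNA helicase of the nucleolus, was at 1001, 948 and 1005 CPM and at 969, 955 and 970 CPM, the least changed of the 4. In a simulation the changed genes were drawn at random from all levels, with each gene's mean taken over all 18 libraries. The test called 17% of genes changed 2-fold and 58% of those changed 4-fold. These rates were not worked out for abundant genes such as these 4. A missing call does not by itself show that a level was kept.

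The same change was also tested against that of the FLI group, to see whether the maturation medium altered the course over the cleavages. In FLI embryos 4568 genes were higher and 3163 lower at the 8-cell stage. The difference between the 2 changes passed the test in 2 genes (0.0152%), PPP1R15A and ENSSSCG00000014569, both with a larger rise in DMEM. By unadjusted p under 0.05, 259 genes had a more positive and 410 a more negative change in FLI, 5.07% of the genes tested. One FLI library stood apart, 8-cell replicate 3, with 21.4% of its mapped reads in genes, and without it 1 gene was called for the difference. The median log2 fold change of ribosomal protein genes in FLI was 5.16 for the small and 4.21 for the large subunit, beside 6.43 and 5.32 in DMEM, and no member was called for the difference. PABPC1, DNMT1, KLF17 and ESRRB were likewise not called for it. The log2 difference, FLI minus DMEM, was -0.90 ± 0.44 (SE) for PABPC1, -1.56 ± 1.47 for KLF17 and 4.37 ± 1.01 for ESRRB (edgeR, adjusted p = 0.542). KLF17 and ESRRB had few or no counts at the 2-cell stage in both media, so a missing call does not show that their changes were alike.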

How the data were processed

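Total RNA of pooled embryos was made into stranded libraries with the SMARTer Pico kit and sequenced in pairs on a NovaSeq. By the study's methods, the authors mapped reads with bowtie2 and took expression values from Illumina Dragen, with versions not given in the sources used here, on the build Sscrofa11.1 named in the submitters' processing notes. The deposited counts per gene (20983 genes) gave all tests and CPM levels. Genes of highest level were ranked by the deposited TPM, and the RPKM of the authors served only to infer mapped reads per library. The 18 columns of CPM were not used. Counts were scaled by TMM and fitted in edgeR 4.0.16 (R 4.3.3) over all 18 libraries with 6 group means, after filterByExpr. Calls are at an adjusted p of 0.05 by Benjamini-Hochberg over all genes. A count of 0 was bounded by 3 counts over a group, and such bounds cover counting error only. The fit was tested on simulated data. Replicate numbers did not pair the libraries (r = -0.030, -0.021 and 0.020 between same-numbered deviations).

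Members and lists were chosen with earlier results of these data known. List members not found by symbol were not tested, among them POU5F1, DPPA3 and NPM2. Of 49 large subunit ribosomal protein genes listed, 35 were found. Genes were named as the 15 largest changes per direction, up to 4 called members of smallest p per list and direction, the 15 highest by TPM, the 10 most abundant without a call and all members of 5 lists. BTG4, POLR2A, KLF4, KRT18, KPNA2, RPS24, ATP8, the pairs and a few other list members were chosen after their values were seen. Alternatives were DESeq2 1.42.0, limma 3.58.1 with voom, 3 other scalings, 2 other filters, fewer libraries, a replicate block, no mitochondrial genes, the study's thresholds and each library left out. No sequence is shown, since none was used here, and a few genes that the rule names are not reported here.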

Additional observations from a re-analysis of the deposited data

Results flagged for a closer look

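PPP1R15A (chromosome 6, 54172050 to 54175463), which encodes the stress-induced phosphatase subunit GADD34, was picked out because its change differed between the media by the test of that difference. It went from 5.63, 5.76 and 5.85 CPM to 192, 277 and 239 CPM in DMEM and from 14.6, 11.6 and 9.08 CPM to 114, 104 and 103 CPM in FLI. The log2 fold changes were 5.35 ± 0.25 and 3.19 ± 0.23, a difference of -2.16 ± 0.31 (edgeR, adjusted p = 0.0183). FLI libraries were above DMEM libraries at the 2-cell stage and below them at the 8-cell stage, in 3 of 3 libraries each. The adjusted p ranged from 1.47e-05 in DESeq2 to 0.321 in limma over the alternatives, and it was above 0.05 without any one 2-cell DMEM library (0.0661 to 0.13), without 8-cell DMEM replicate 2 (0.0972) or 3 (0.0852) and with upper quartile scaling (0.0592).

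ENSSSCG00000014569 (chromosome 9, 707693 to 711219) was picked out by the same test. It went from 4.33, 3.07 and 3.99 CPM to 466, 400 and 403 CPM in DMEM and from 11.5, 9.41 and 9.08 CPM to 307, 148 and 219 CPM in FLI, a difference of -2.29 ± 0.36 (adjusted p = 0.0377). Its adjusted p ranged from 0.000527 in DESeq2 to 0.951 in limma and was above 0.05 on leaving out any one of the 6 DMEM libraries (0.07 to 0.171). Neither gene has a value that bears on the cause of the difference, which was not tested.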

How the results depend on the processing

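The counts of higher and lower genes stayed within 1.5 times their main values of 4737 and 3830 under all alternatives run except the study's thresholds, which gave 2247 lower genes. Leaving out 1 DMEM library gave 4117 to 4845 higher and 3213 to 3957 lower genes, and the replicate block gave 4656 and 3769. The median over all genes tested, 0.19, was -0.00514 with only the 6 libraries compared, 0.0663 with the 9 DMEM libraries, 0.35 without a filter, -0.0315 with at least 10 counts in a group and 0.0866 without 8-cell FLI replicate 3, an alternative chosen after seeing the data. Leaving out 1 of the DMEM libraries compared gave 0.11 to 0.34. Of 38 lists, 29 kept the sign of their median under every alternative, and the others lay near 0 except paternally expressed genes, whose median changed sign under 5 alternatives, leaving out 8-cell replicate 1 among them. Of 327 named genes with a call, 302 could be fitted under all 18 alternatives and 283 of these kept it in each. In all, 20 lost it under at least 1 alternative and none reversed.

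The number of genes called for the difference between media, 2, was 9 with DESeq2, 0 with limma and with upper quartile scaling, and 1 with DESeq2 size factors, with library size only, with at least 10 counts in a group, without mitochondrial genes and without 8-cell FLI replicate 3; it was 0 to 1 on leaving out a DMEM library and 2 with the replicate block. Fits with DMEM libraries only give no value for it. The causes were not tested. Detected genes with at least 5 counts numbered 11536 at the 2-cell and 12308 at the 8-cell stage. Depth limits the low genes, since 3 counts over the 8-cell group correspond to 0.330 CPM.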

Other observations

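Of 40 tested nuclear pore and transport genes 19 rose (47.5%) and 12 fell (30%) in edgeR's test, beside 35.9% and 29.0% of all genes tested. RAN, the GTPase that drives nuclear transport, rose from 72.9, 68.4 and 71.9 CPM to 472, 790 and 707 CPM, and RCC1, its exchange factor on chromatin, from 24.4, 21.3 and 25.1 CPM to 112, 141 and 116 CPM. The pore subunits NUP107 and NUP85 and the pore membrane protein NDC1 fell with log2 fold changes of -1.02, -0.84 and -1.03.

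Of a longer list of cumulus and granulosa markers 7 genes were tested, and CD44, STAR and COL1A1 rose, none above 11.6 CPM in any 8-cell library. Among markers of other somatic cells, MYH11, the smooth muscle myosin heavy chain, stood at 270, 243 and 255 CPM in 2-cell and 75.8, 39.9 and 37.5 CPM in 8-cell embryos, far above the other members of that list. EFHD1, an EF-hand protein of mitochondria, rose from at most 0.285 CPM to 258, 276 and 378 CPM. Among the genes that fell most, SRPX went from 169, 221 and 213 CPM to 28.4, 8.11 and 2.86 CPM, TLE7 from 224, 241 and 204 CPM to 29.5, 9.64 and 5.36 CPM, and LNX1, a ubiquitin ligase, from 158, 174 and 151 CPM to 19.7, 10.1 and 3.21 CPM. In these 3 genes 8-cell replicate 1 was the highest of the 8-cell libraries.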
